A study of Homo sapiens with 24 samples.

Results

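The regions described here are Myc peaks at neighbouring protein-coding genes, each within 1 kb of ends of 2 or more genes. A peak need not lie in the space between the genes, and some of the genes overlap. The regions were chosen by position alone, from the peaks of a Myc CUT&Tag library at day 5 of doxycycline on chromosomes 1 to 22 and X. Of 6718 peaks, 1106 met the rule (16.5%, 95% interval 15.6 to 17.4). CUT&Tag uses an antibody to bring a transposase to its target, and bound sites appear as peaks of tagged fragments. Cells of MIA PaCa-2, a long-established line from a human pancreatic carcinoma, carried a doxycycline-inducible cDNA of MED30, a subunit of the Mediator complex that links transcription factors to RNA polymerase II. The groups used were cells titled as 5 days with doxycycline and cells of the same line without doxycycline, both carrying the inducible construct and both lightly fixed before the Myc antibody was added. The comparison bears on where Myc lies once more MED30 is made. Each condition had 1 library, so no difference below has a replicate check and none was tested across samples. A protocol text common to all samples gives 2 days of induction, where the title, followed here, gives 5; whether the line is 1 clone is not stated. The other 22 of 24 samples, IgG controls among them, were not analysed here, and some peaks can therefore be background that IgG would also give.

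Neighbouring human genes often start close together and are transcribed away from each other. Such a head-to-head arrangement, also called a bidirectional or divergent promoter, places both starts in 1 stretch of open, CpG-rich chromatin, and many genes of DNA repair, mitochondria and protein synthesis are arranged this way. Genes can also lie head to tail, with the start of one beside the far end of the next, or tail to tail. Myc is a transcription factor that binds DNA as a dimer with Max, prefers the E-box CACGTG and its variants such as CACGCG, and is found mostly at active promoters.

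The sequences below are the stretches of DNA around some of these starts, shown because they hold, or lack, the letters Myc prefers. Each is a RefSeq window on GRCh38.p14, which is the hg38 assembly of the peaks, read 5′ to 3′ on the strand of the named gene from 250 bases before its start to 50 after it. Capitals mark CACGTG and CACGCG, which reads CGCGTG when it lies on the opposite strand. The window of CCDC47 lies at the highest-ranked of these peaks and has none of the motifs, but the summit of that peak fell outside the window, inside DDX42, and the bases under it are not shown. Base 48 of it is the start of the neighbour DDX42.
CCDC47, chr17:63773548-63773847, minus strand: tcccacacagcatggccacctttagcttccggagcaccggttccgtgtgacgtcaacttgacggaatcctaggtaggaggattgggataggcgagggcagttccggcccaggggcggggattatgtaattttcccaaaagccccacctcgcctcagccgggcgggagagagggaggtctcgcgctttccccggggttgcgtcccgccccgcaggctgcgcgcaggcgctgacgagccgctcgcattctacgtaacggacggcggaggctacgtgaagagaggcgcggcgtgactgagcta
NRL, chr14:24114900-24115199, minus strand: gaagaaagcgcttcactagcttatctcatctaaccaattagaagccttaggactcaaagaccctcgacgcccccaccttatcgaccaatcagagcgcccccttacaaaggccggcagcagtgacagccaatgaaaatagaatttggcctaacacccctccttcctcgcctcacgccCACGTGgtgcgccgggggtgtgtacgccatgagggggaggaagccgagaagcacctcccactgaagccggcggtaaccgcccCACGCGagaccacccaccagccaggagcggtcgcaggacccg
NDUFA11, chr19:5903741-5904040, minus strand: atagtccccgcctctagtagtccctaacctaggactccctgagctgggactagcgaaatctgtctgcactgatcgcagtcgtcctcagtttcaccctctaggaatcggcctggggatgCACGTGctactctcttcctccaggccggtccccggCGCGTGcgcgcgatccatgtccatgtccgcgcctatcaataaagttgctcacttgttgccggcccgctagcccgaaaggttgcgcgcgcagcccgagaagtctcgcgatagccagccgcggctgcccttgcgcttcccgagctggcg
CCT3, chr1:156338243-156338542, minus strand: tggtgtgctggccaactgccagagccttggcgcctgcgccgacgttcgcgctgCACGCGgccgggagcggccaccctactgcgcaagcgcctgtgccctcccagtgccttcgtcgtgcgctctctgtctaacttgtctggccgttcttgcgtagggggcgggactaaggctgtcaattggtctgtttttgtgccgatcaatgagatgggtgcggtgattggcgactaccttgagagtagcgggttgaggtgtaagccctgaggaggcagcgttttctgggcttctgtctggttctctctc
HSPE1, chr2:197500129-197500428, plus strand: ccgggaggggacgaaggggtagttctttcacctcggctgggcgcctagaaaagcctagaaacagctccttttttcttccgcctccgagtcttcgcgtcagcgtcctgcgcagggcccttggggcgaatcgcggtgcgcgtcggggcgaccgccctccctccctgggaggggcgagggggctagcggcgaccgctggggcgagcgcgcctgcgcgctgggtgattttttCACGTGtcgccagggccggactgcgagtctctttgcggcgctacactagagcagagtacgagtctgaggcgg
FEN1, chr11:61792661-61792960, plus strand: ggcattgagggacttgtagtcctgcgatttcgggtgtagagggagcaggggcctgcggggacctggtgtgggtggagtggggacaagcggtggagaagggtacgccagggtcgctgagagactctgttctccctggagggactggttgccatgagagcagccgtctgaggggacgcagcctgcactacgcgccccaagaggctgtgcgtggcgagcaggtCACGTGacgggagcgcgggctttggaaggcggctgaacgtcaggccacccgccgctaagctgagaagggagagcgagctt
HNRNPH3, chr10:68331443-68331742, plus strand: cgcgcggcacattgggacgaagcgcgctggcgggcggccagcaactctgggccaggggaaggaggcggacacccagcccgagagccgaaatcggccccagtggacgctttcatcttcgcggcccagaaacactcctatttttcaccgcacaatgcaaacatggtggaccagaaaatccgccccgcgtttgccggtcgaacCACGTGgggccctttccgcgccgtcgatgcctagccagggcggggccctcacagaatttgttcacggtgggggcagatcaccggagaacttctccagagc
In each window the gene's own start is base 251. The windows of NRL, NDUFA11 and CCT3 are at top-ranked peaks found in both libraries, HSPE1 and FEN1 belong to classical divergent pairs, and HNRNPH3 is at a peak listed at day 5 and not without doxycycline. In the HSPE1 window, base 146 is the start of HSPD1 on the other strand, so both starts of the pair and its E-box can be read in that line. In the NRL window the Myc summit of day 5 fell on base 268. In every other window shown, the summit of its peak fell outside the window. The windows are a selection in which most hold a motif, against 31.9% of all head-to-head windows. The windows of DCAF11 and VMAC, neighbours of NRL and NDUFA11, hold none and are not printed.

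Strand was known for 15811 of the 19970 coding genes. Of the 1106 peaks, 652 (59.0%, 56.0 to 61.9) reached the starts of genes on opposite strands, 164 (14.8%) a start and the far end of another gene, and 36 (3.25%) several starts on the same strand. No peak with a known orientation reached far ends only. For 254 peaks (23.0%) the orientation could not be read because the strand of a gene was not known. Whether any of those reached far ends only could not be told. Among the 852 with a known orientation, head-to-head made up 76.5% (73.5 to 79.3). The same rule applied to the list without doxycycline gave 607 of 3468 peaks (17.5%, 16.3 to 18.8), with 379 head-to-head, 77 start with far end, 21 on the same strand, 130 unread and again 0 with far ends only. Intervals of shares are exact Clopper-Pearson intervals that treat peaks or genes as independent draws, and they do not cover the spread between replicate libraries.

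Read from the gene side, head-to-head pairs had a peak more often than any other arrangement with a known strand. The annotation holds 1097 head-to-head pairs with starts within 1 kb of each other. Of these, 58.0% (55.0 to 60.9) had a peak within 1 kb of both starts at day 5, and 34.6% (31.8 to 37.5) had one without doxycycline. Gene starts with no other coding gene end within 2 kb, called lone starts here, had a peak in 22.4% of 11953 cases at day 5 (21.7 to 23.2) and in 11.2% without doxycycline (10.7 to 11.8). Pairs of starts on the same strand lay between, with 43.0% of 151 at day 5 (35.0 to 51.3) and 25.2% without doxycycline (18.5 to 32.9). Some of these, such as NME1 with NME1-NME2 and ANKHD1 with ANKHD1-EIF4EBP3, are 1 annotated start under 2 names. How many was not counted, so this class is not purely one of neighbouring starts. A pair offers 2 starts in place of 1. With stretches of equal length, counting summits within 1 kb of the midpoint of a pair or of a lone start, the day 5 shares were 57.6% for pairs and 21.7% for lone starts. Neither set was matched on gene activity.

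Far ends of genes were almost without Myc, also where 2 of them met. Of 638 tail-to-tail pairs, 7 (1.10%, 0.442 to 2.25) had a peak in reach of both ends at day 5, and 2 (0.313%) without doxycycline. Of 395 pairs of far ends on the same strand, 2 had one at day 5 and 1 without doxycycline. In all 9 cases of day 5 the peak also reached the start of a gene. Pairs of a start and a far end held an intermediate place, with 28.7% of 567 at day 5 (25.1 to 32.7) and 15.2% without doxycycline (12.3 to 18.4). At 133 of the 164 such peaks (81.1%, 74.3 to 86.8) the day 5 summit lay nearer the start than the far end, as it did at 59 of 77 without doxycycline. Lone far ends had a peak in 0.403% of 11656 cases at day 5 and in 0.249% without doxycycline.

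**Figure D1:**
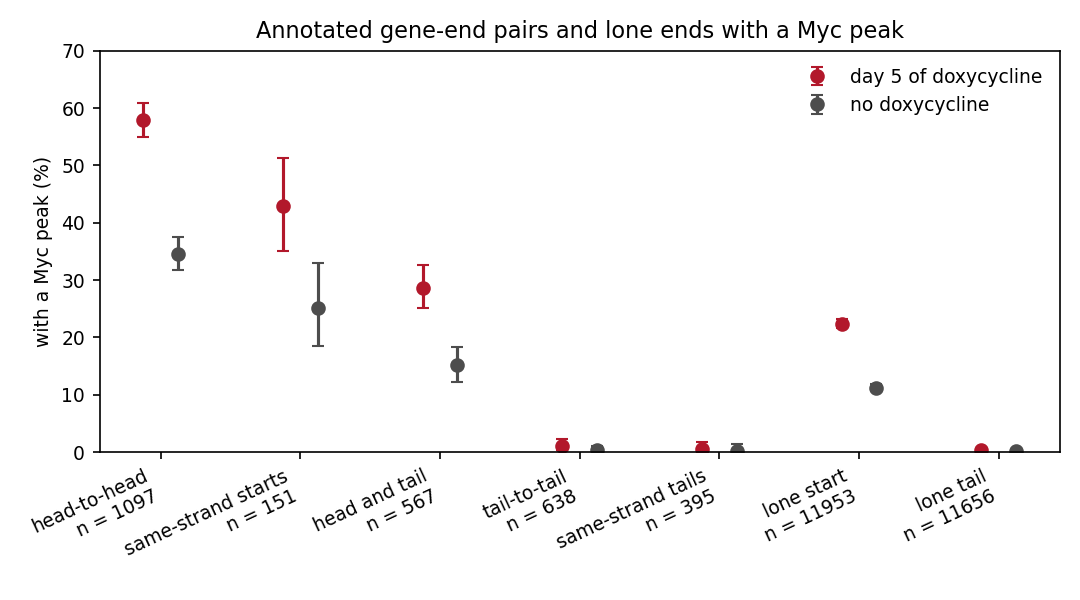
Share of annotated gene-end pairs within 1 kb of each other, and of lone gene ends, with a Myc peak within 1 kb (vertical axis, percent), at day 5 (red) and without doxycycline (grey); bars are exact 95% binomial intervals and n counts pairs or ends. Head-to-head pairs stand at 58.0% at day 5 and 34.6% without doxycycline, above lone starts at 22.4% at day 5 and 11.2% without doxycycline, and pairs of far ends lie near 0.

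Up to a distance of 1 kb, head-to-head pairs with starts further apart had a Myc peak more often. Among pairs whose genes do not overlap, 45.7% of 208 pairs with a gap of up to 100 bp had a day 5 peak (38.8 to 52.7). The share was 58.4% at 101 to 200 bp, 60.4% at 201 to 300 bp, 66.4% at 301 to 500 bp and 72.1% (59.2 to 82.9) of the 61 pairs at 501 to 1000 bp. Without doxycycline the shares in the same order were 25%, 30.7%, 33.1%, 46.2% and 62.3% (49.0 to 74.4). At 1001 to 2000 bp, where a peak must span more to reach both starts, the share was 33.3% of 51 pairs at day 5 (20.8 to 47.9) and 11.8% without doxycycline (4.44 to 23.9); by summits within 1 kb of the midpoint it was 45.1% at day 5 and 31.4% without doxycycline. Of the classes up to 1 kb, the end classes do not overlap in their intervals in either library, while neighbouring classes do. Pairs whose genes overlap at their starts had a peak in 58.7% of 283 cases at day 5 and in 35.3% without doxycycline, and pairs with starts apart in 57.7% at day 5 and 34.4% without doxycycline.

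**Figure D2:**
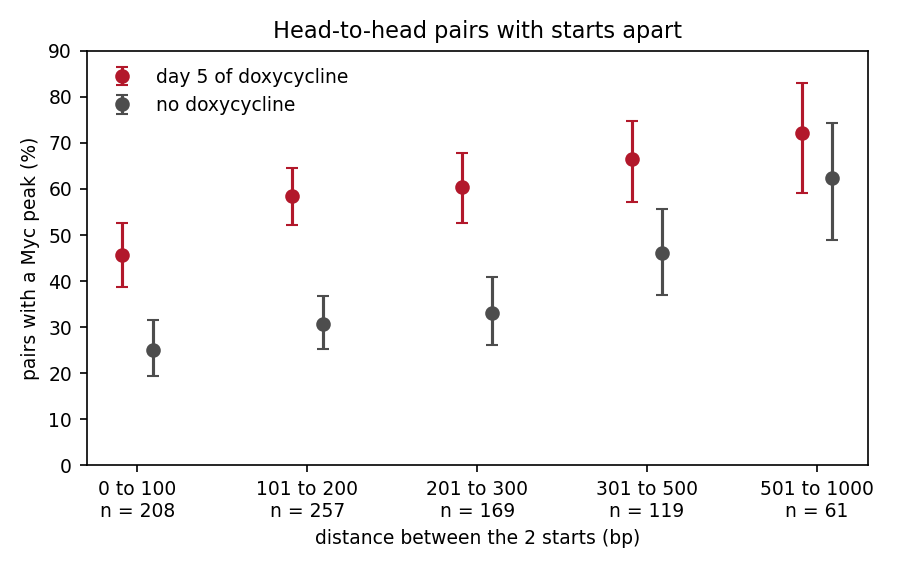
Share of head-to-head pairs with starts apart that had a Myc peak within 1 kb of both starts (vertical axis, percent) by the distance between the starts in bp, at day 5 (red) and without doxycycline (grey), with exact 95% binomial intervals. Over these distances, none above 1 kb, the day 5 shares run from 45.7% to 72.1% and those without doxycycline from 25% to 62.3%.

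The summit, where most fragments pile up, was seldom in the gap when the gap was short. At 472 day 5 head-to-head peaks with starts apart, the starts lay a median of 199 bp from each other (quartiles 110 and 331.5), and the summit lay between them in 149 (31.6%, 27.4 to 36.0). With gaps of up to 100 bp this was so for 4 of 91 peaks, with 101 to 200 bp for 18 of 148, with 201 to 300 bp for 31 of 98, with 301 to 500 bp for 45 of 76, and with longer gaps for 51 of 59. A short gap leaves a summit little room. Without doxycycline the summit lay between the starts in 82 of 274 (29.9%). The peak itself covered both starts in 226 of 472 at day 5 (47.9%, 43.3 to 52.5) and in 98 of 274 without doxycycline (35.8%, 30.1 to 41.8), where peaks were narrower. Measured from the nearer start, the day 5 summit lay a median of 72 bp inside the gene (quartiles 25.8 bp before the start and 206.2 bp after it).

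**Figure D3:**
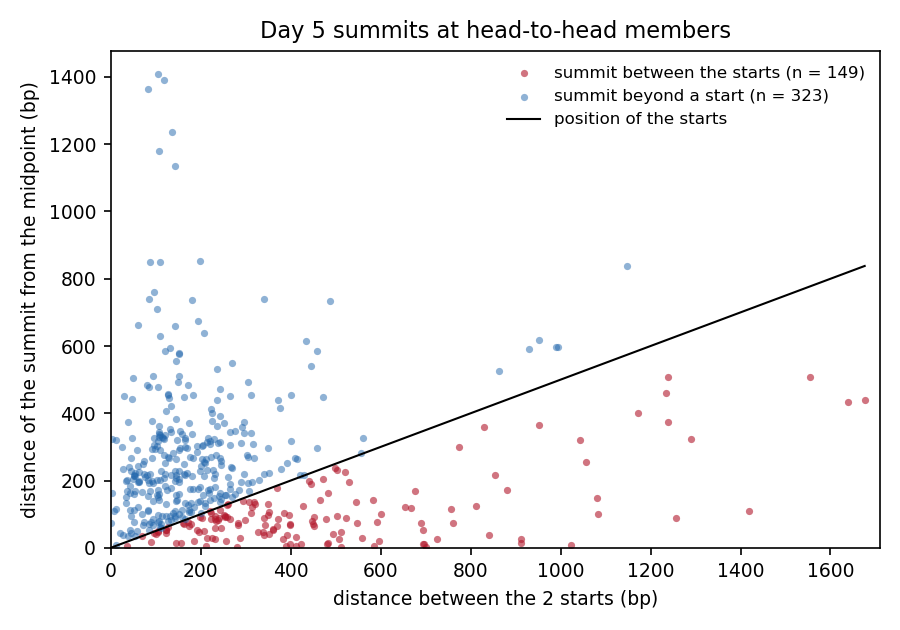
Distance of the day 5 summit from the midpoint between the starts (vertical axis, bp) against the distance between the starts (horizontal axis, bp) for 472 head-to-head peaks with starts apart. The line marks the starts; 149 summits lie under it, between the starts (red), and 323 lie above it, beyond a start (blue).

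Peaks at neighbouring genes were found again without doxycycline somewhat more often than other day 5 peaks. A counterpart, overlapping by at least 1 bp, was listed for 563 of the 1106 (50.9%, 47.9 to 53.9) and for 350 of the 652 head-to-head peaks (53.7%, 49.8 to 57.6). Peaks at ends of 1 coding gene had one in 42.9% of 3367 cases (41.2 to 44.5), and peaks at no coding gene end in 37.4% of 2245 (35.4 to 39.5). The share over all 6718 day 5 peaks was 42.4%. Height and width moved with these shares. The median −log10 q was 6.89 at the neighbouring-gene peaks, 6.38 at ends of 1 gene and 5.11 away from gene ends, and the median widths were 647, 587 and 542 bp. A wider peak reaches more gene ends by construction. Within classes of −log10 q the share was higher at neighbouring genes than at ends of 1 gene in every class, with overlapping intervals: below 3 it was 16.5% at neighbouring genes against 10.1%, from 3 to 6 it was 29.0% against 24.0%, and from 6 to 10 it was 51.4% against 46.2%. From 10 to 20 it was 79.3% at neighbouring genes against 77.9% at ends of 1 gene, and from 20 upwards 97.1% against 94.8%. Within classes of width it was 25.9% at neighbouring genes against 17.0% at ends of 1 gene under 400 bp, 32.1% against 30.9% from 400 to 600 bp, 53.8% against 50.3% from 600 to 800 bp, and 76.7% (71.9 to 81.1) against 69.5% (66.1 to 72.8) at 800 bp and above. The part of height and width in the difference was not tested beyond these classes.

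**Figure D4:**
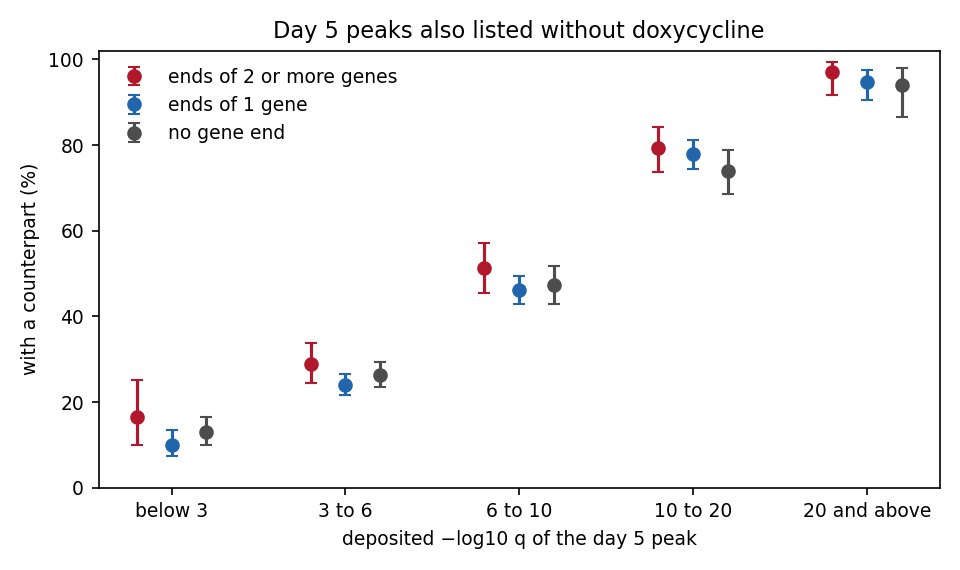
Share of day 5 peaks with a counterpart without doxycycline (vertical axis, percent) by the deposited −log10 q of the day 5 peak, for peaks at ends of 2 or more coding genes (red), of 1 (blue) and of none (grey), with exact 95% binomial intervals. The 3 kinds of peak lie close together within each class, from 10.1% to 16.5% in the lowest to 94.0% to 97.1% in the highest.

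In the other direction, 551 of the 607 neighbouring-gene peaks without doxycycline had a day 5 counterpart (90.8%, 88.2 to 93.0), against 85.7% of 1689 at ends of 1 gene (83.9 to 87.3), 72.7% of 1172 away from gene ends and 82.2% of all 3468. Counted by pairs, 350 of the 1097 annotated head-to-head pairs had a peak in both libraries, 286 at day 5 only, 30 without doxycycline only and 431 in neither. The day 5 list is the longer one, and a longer list can reach more pairs. With only the 3468 highest-ranked day 5 peaks, a setting chosen after seeing the data, 33.9% of the head-to-head pairs (31.1 to 36.8) had a day 5 peak, against 34.6% without doxycycline. Just inside the limit of the rule, 76 peaks had their second gene end 751 to 1000 bp away, and 32.9% of them had a counterpart (22.5 to 44.6). Just outside, at 1001 to 1250 bp, it was 48.4% of 62 (35.5 to 61.4).

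Fragments over a summit were recovered from the deposited fold and −log10 p. All of the neighbouring-gene peaks had a median of 13 at day 5 (quartiles 9 and 20), against 12 over all day 5 peaks. At the 350 head-to-head peaks with a counterpart, the day 5 summit held a median of 19 fragments (quartiles 12 and 27), against 13 (9 and 20) in the counterpart without doxycycline. The number was higher at day 5 in 272, equal in 27 and lower in 51, with a median ratio of 1.38 (quartiles 1.09 and 1.73). In 14 of the 350 the Poisson interval of day 5 lay wholly above that of the counterpart (4.00%, 2.20 to 6.62), near the 3.72% of all shared day 5 peaks. For all 2846 shared day 5 peaks the ratio was 1.43, and 80.5% of them held more fragments at day 5. The number of reads sequenced is not known here, and a ratio above 1 at shared peaks cannot be told apart from deeper sequencing. The 302 head-to-head peaks with no counterpart were weaker, with a median of 10 fragments (quartiles 8 and 13). Each library's number was read at its own summit. In 161 of the 350 (46.0%) the summits of both libraries lay within 100 bp of each other, near the 44.3% of all shared day 5 peaks.

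**Figure D5:**
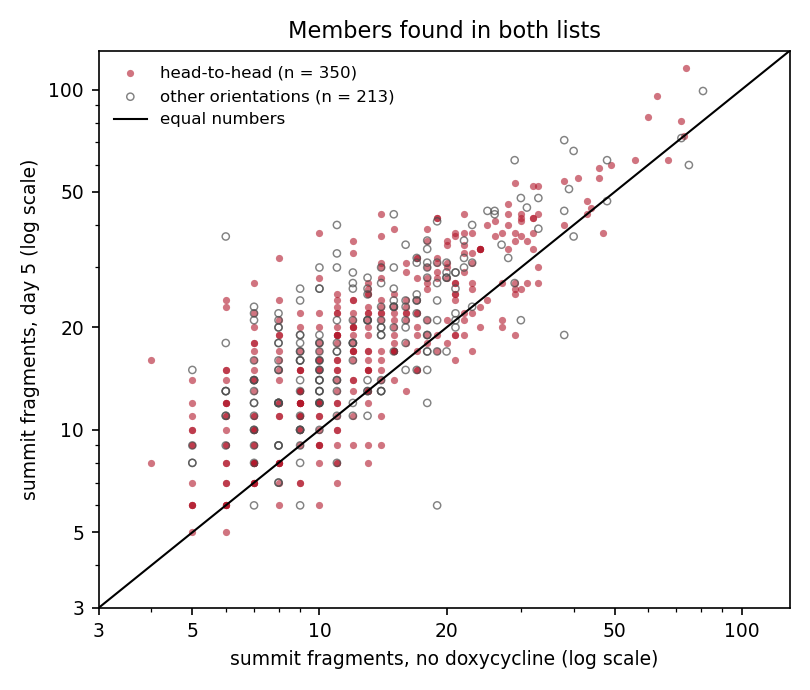
Fragments over the summit at day 5 (vertical axis, log scale) against the counterpart without doxycycline (horizontal axis, log scale) for 563 neighbouring-gene peaks listed in both, 350 head-to-head (red) and 213 of other orientation (open circles). Most points lie above the line of equal numbers, 272 of the 350 head-to-head peaks among them, and the DDX42/CCDC47 peak is at the top right with 116 at day 5 and 74 without doxycycline.

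DDX42 is an RNA helicase of splicing, and CCDC47 is an endoplasmic reticulum protein that helps to insert membrane proteins. The highest-ranked of the neighbouring-gene peaks, by the authors' −log10 q, lay at their starts (chr17:63773615-63774302). Its summit held 116 fragments at day 5 (exact Poisson interval 95.9 to 139.1) and 74 without doxycycline (58.1 to 92.9). The starts are 203 bp apart, and the summit lay 164 bp inside DDX42. Poisson intervals cover counting error of fragments only. Next among the head-to-head peaks came the starts of EIF3B, a subunit of translation initiation factor eIF3, and SNX8, a sorting nexin, which overlap by 411 bp, with 96 fragments at day 5 and 63 without doxycycline. At rank 3 of all neighbouring-gene peaks was one of unread orientation at RBM15, an RNA-binding protein, and LOC124904276, with 99 at day 5 and 81 without doxycycline. The head-to-head pair TSACC and CCT3 followed with 81 at day 5 and 72 without doxycycline, CCT3 being part of the cytosolic chaperonin for actin and tubulin. The CCT3 window above, at this peak (chr1:156338280-156339018), shows 1 CACGCG. DCAF11, a receptor of the CUL4 ubiquitin ligase, and NRL, a retinal transcription factor, shared a peak with 83 fragments at day 5 and 60 without doxycycline, whose day 5 summit lay 17 bp from the NRL start. All 5 peaks held more fragments at day 5, but only the intervals of DDX42/CCDC47 do not overlap. These peaks, and those named by rank below, were chosen by their day 5 −log10 q, which favours higher numbers at day 5. Of all shared day 5 peaks, 80.5% held more at day 5, and the depth of the libraries is unknown.

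A selection of the next head-to-head peaks by rank follows. NDUFA11, a subunit of respiratory complex I, and VMAC had 73 fragments at day 5 and 73 without doxycycline, at starts 1082 bp apart. POLE3, a histone-fold subunit of DNA polymerase epsilon, and C9orf43 have starts 2 bp from each other and had 59 fragments at day 5 and 46 without doxycycline. UTP18, of the complex that processes the small ribosomal subunit RNA, and MBTD1 had 62 at day 5 and 67 without doxycycline. Of these 3 peaks, the first held equal numbers, the second more at day 5 and the third fewer, all with overlapping intervals. PMS2, a mismatch repair protein, and AIMP2, a scaffold of the tRNA synthetase complex, had 60 at day 5 and 49 without doxycycline, with starts 166 bp apart. NOP16, a nucleolar factor of the large ribosomal subunit, and HIGD2A, a respiratory chain assembly factor, had 55 at day 5 and 46 without doxycycline. MGME1, an exonuclease of mitochondrial DNA, and SNX5 had 55 at day 5 and 41 without doxycycline. RPLP2, a protein of the ribosomal stalk, and PIDD1, a death domain protein, had 52 at day 5 and 33 without doxycycline. These last 4 all held more at day 5, again with overlapping intervals. SEC31A, of the COPII vesicle coat, with THAP9 had 42 at day 5 and 19 without doxycycline, and DPAGT1, which starts N-glycan synthesis, with C2CD2L had 54 at day 5 and 38 without doxycycline. Of these, SEC31A/THAP9 has intervals that do not overlap (30.3 to 56.8 at day 5, against 11.4 to 29.7).

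The head-to-head peaks listed at day 5 and not without doxycycline were led by PPAN, a ribosome biogenesis factor, with ANGPTL6, whose starts lie 33 bp apart, at 28 fragments (interval 18.6 to 40.5). RECQL, a DNA helicase, and GOLT1B, of Golgi transport, had 24. HNRNPH3, an RNA-binding protein of splicing, and PBLD had 32, at the start whose window above holds 1 CACGTG. MZT2B and SMPD4 had 27, NUP98, a nuclear pore protein, and PGAP2 had 25, and RHOA, the small GTPase of the actin skeleton, and TCTA had 21. The highest-ranked of them stood at rank 367 of 6718, and a peak missing from the other list stayed under the cutoff of the caller there, which leaves weaker Myc binding possible.

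Among peaks at a start and a far end, PSMG1, a proteasome assembly chaperone, beside the end of BRWD1 had 48 fragments at day 5 and 30 without doxycycline, and GAPDH, the glycolytic enzyme, beside the end of NCAPD2 had 62 at day 5 and 29 without doxycycline. CD320, a vitamin B12 uptake receptor, beside the end of NDUFA7 had 40 at day 5 and 11 without doxycycline. At CD320 (28.6 to 54.5 at day 5, against 5.49 to 19.7) and at GAPDH (47.5 to 79.5 at day 5, against 19.4 to 41.6) the intervals do not overlap. Starts on the same strand were in some cases those of a gene and its annotated readthrough form, where 1 start is counted under 2 names. Examples are NME1 and NME1-NME2 (39 at day 5 and 33 without doxycycline) and ANKHD1 and ANKHD1-EIF4EBP3 (37 at day 5 and 40 without doxycycline). Of the unread orientations, NSUN2, an RNA cytosine methyltransferase, with SRD5A1 had 66 at day 5 and 40 without doxycycline, and CBX5, the heterochromatin protein HP1 alpha, with HNRNPA1 had 72 in both. At POLR2I, a subunit of RNA polymerase II, with TBCB, a tubulin folding cofactor, the day 5 number was the lower, 60 at day 5 against 75 without doxycycline, with overlapping intervals. Ends of 3 genes were reached by 51 peaks and ends of 4 by 1. POLR1G, a subunit of RNA polymerase I, with ERCC1 and PPP1R13L had 42 fragments at day 5 and 32 without doxycycline, and ATF5, NUP62 and IL4I1 had 41 at day 5 and 30 without doxycycline.

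Pairs that are textbook examples of divergent promoters were mixed. HSPD1 and HSPE1, the mitochondrial chaperonin and its partner, had 43 fragments at day 5 (31.1 to 57.9) and 14 without doxycycline (7.65 to 23.5). These intervals do not overlap, and the ratio of 3.07 was above the median of 1.38 for head-to-head peaks. Each number was read at the summit of that library's own peak. The day 5 summit, at base 197500008, lay close to the edge of the peak without doxycycline, which began at base 197499991. The numbers can therefore belong to different positions. The day 5 summit lay 266 bp inside HSPD1, outside the HSPE1 window with its E-box. ATM, a kinase of the DNA damage response, and NPAT, a histone gene activator, had 28 at day 5 and 17 without doxycycline, and MRPS12 and SARS2, a mitochondrial ribosomal protein and the mitochondrial seryl-tRNA synthetase, had 17 at day 5 and 13 without doxycycline. BRCA2, of homologous recombination, and ZAR1L had 12 at day 5 and 6 without doxycycline. The intervals of these 3 pairs overlap between the libraries. The BRCA2/ZAR1L peaks, chr13:32315475-32315871 at day 5 and chr13:32315067-32315483 without doxycycline, met only at their edges. Their numbers come from neighbouring stretches more than from 1 site. FEN1, the flap endonuclease of replication, and TMEM258 had 10 at day 5 and no listed peak without doxycycline. With strand unread, PRKDC, a kinase of end joining, and MCM4, of the replicative helicase, had 17 at day 5 and 9 without doxycycline. RANBP1 and TRMT2A had 16 at day 5 and no listed peak without doxycycline. COL4A1 and COL4A2, the type IV collagen chains, TK1 and AFMID, and SURF1 and SURF2 had no peak at either gene in either library. PPAT and PAICS, of purine synthesis, have starts 25108 bp apart by the annotated spans, and each library had 1 peak at one of the genes and none at both.

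The 1106 peaks reached 2209 coding genes, which is 11.1% of all 19970 and 40.3% of the 5483 genes with any day 5 peak at an end. Any peak at an end was found for 27.5% of coding genes at day 5 and 14.5% without doxycycline. For 2144 of the 2209 the peak shared with a neighbour was the only kind of peak at their ends. The share of a gene list that neighbouring-gene peaks reached is given beside the 11.1% of all coding genes, and no list was tested. Heat shock proteins and chaperonins had 14 of 37 (37.8%, 22.5 to 55.2), among them TCP1 of the cytosolic chaperonin, which starts 210 bp from MRPL18 (33 fragments at day 5 and 22 without doxycycline), and CCT7, beside PRADC1 (38 at day 5 and 29 without doxycycline). DNA repair and replication genes had 28 of 79 (35.4%, 25 to 47), with APEX1, the abasic site endonuclease, beside OSGEP (42 at day 5 and 32 without doxycycline). Mitochondrial ribosomal proteins had 25 of 77 (32.5%, 22.2 to 44.1), with MRPL54 beside APBA3 (27 at day 5 and 27 without doxycycline) and MRPS18B beside PPP1R10 (19 at day 5 and 8 without doxycycline). Cytosolic ribosomal proteins had 22 of 79 (27.8%, 18.3 to 39.1), with RPL35 beside ARPC5L (38 at day 5 and 21 without doxycycline) and RPL36A beside BTK (27 at day 5 and 29 without doxycycline). Genes of these 4 lists also had peaks of any kind often at day 5: 31 of 37, 53 of 79, 46 of 77 and 59 of 79.

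Other lists lay nearer the share of all genes. Aminoacyl-tRNA synthetases had 8 of 38, led by EARS2 beside UBFD1 (26 at day 5 and 23 without doxycycline), and nucleotide synthesis had 6 of 30, with GART, of purine synthesis, beside SON, a splicing cofactor (42 at day 5 and 30 without doxycycline). Replication-dependent histones had 12 of 65 (18.5%, 9.92 to 30.0), with each peak shared by a pair of these genes. None of these peaks overlapped a peak without doxycycline, where 50.9% of all neighbouring-gene peaks did. The histone peaks had −log10 q from 2.44 to 8.36. In the classes of −log10 q below 10, the share for neighbouring-gene peaks ran from 16.5% to 51.4%. The list without doxycycline has neighbouring-gene peaks of its own at 8 histone genes, and any peak at 17 of the 65 genes at day 5 and at 10 without doxycycline. Adjacent H2A and H2B genes made up 4 of these head-to-head peaks, with 17 fragments at day 5 at H2AC14 and H2BC14 and 13 at H2AC6 and H2BC4. Histone genes are near-identical copies, and reads can be shared between them. Proteasome subunits had 3 of 32. Mediator subunits had 3 of 33, among them CDK19 beside AMD1 (32 at day 5 and 17 without doxycycline) and MED19 beside TMX2 (16 at day 5 and no listed peak without doxycycline). The Myc and Max network had 2 of 24, RUVBL1 beside EEFSEC (14 at day 5) and MLX beside COASY (16 at day 5), both with no listed counterpart. Without doxycycline, 3 genes of this list had a neighbouring-gene peak, and any peak was found at 14 of the 24 at day 5 and at 12 without doxycycline. Epithelial keratin and adhesion genes had 0 of 8, leukocyte markers 0 of 13 and acinar and endocrine pancreas markers 0 of 13. Any day 5 peak was found at 1 of the 8 epithelial genes and at none of the other 26, so these peaks give little on the identity of the cells, which expression would show. Both genes of a head-to-head peak were on one of the 10 lists other than the classical pairs and the cell type markers in 10 of 652 cases, and on the same list in 6 of those.

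CACGTG was more frequent at head-to-head pairs with a Myc peak than at those without one, and about as frequent as at other starts with a peak. Windows were found for 1174 of the 1319 genes whose starts the head-to-head peaks reached. CACGTG, a palindrome read the same on both strands, was in 159 of them (13.5%, 11.6 to 15.6), in 13.2% of 2536 windows at peaks of 1 gene start (12 to 14.6) and in 8.97% of all 13831 coding gene windows. Annotated head-to-head pairs with a day 5 peak held it in 13.7% of 1115 windows (11.8 to 15.9) and those without a day 5 peak in 6.27% of 798 (4.69 to 8.18). Head-to-head peaks with a counterpart had it in 16.4% of 636 windows (13.6 to 19.5) and those with none in 10.3% of 542 (7.90 to 13.2), while CACGCG was in 21.4% with a counterpart and 24.0% with none, and either motif in 33.5% with a counterpart and 30.3% with none. For CACGTG at −log10 q from 20 upwards the share was 24.0% of 121 (16.7 to 32.6). CACGCG on either strand, which shares no full match with CACGTG, was in 22.6% of the head-to-head windows, in 22% at 1 gene start and in 14.9% of all. The median GC content was 63.7% in head-to-head pairs with a day 5 peak and 66.0% in those without one. In sets not limited to these pairs the order was the reverse. The median was 65.3% at peaks of 1 gene start and 61.0% at coding genes with no day 5 peak at an end, with 62.7% in all windows. The genes with no day 5 peak include those of head-to-head pairs without one. Windows of a close pair overlap, so some motifs are counted for both genes. A match says nothing on whether Myc touched those letters, and most windows at Myc peaks held neither motif: 31.9% had 1 or the other.

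Where the summit itself fell inside a window, 60 of 295 head-to-head peaks (20.3%, 15.9 to 25.4) had a CACGTG there, a median of 78 bp from the summit, and 131 of 793 peaks at 1 gene start (16.5%, 14 to 19.3) had one at 62.5 bp.

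Neighbouring-gene peaks were spread over the genome, from 9.31% of the day 5 peaks of chromosome 7 and 10.9% of those of X to 20.1% on chromosome 17 and 20.9% on chromosome 11. Among the strongest peaks, those with −log10 q at 20 or more, they made up a larger part: 103 of 377 at day 5 (27.3%, 22.9 to 32.1) and 49 of 173 without doxycycline (28.3%, 21.7 to 35.7), against 16.5% of all day 5 peaks and 17.5% of all those without doxycycline. Strong peaks were also wider, and a wider peak reaches more gene ends by construction. At day 5 the median width in this class was 944 bp at neighbouring genes and 809 bp at ends of 1 gene, against 580 bp over all peaks. The part of width was not tested here.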

How the data were processed

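Myc CUT&Tag peak lists of 2 libraries were used, 1 per condition, grouped by title. The tools named, per the submitters' processing notes, are MACS2, Bowtie2, deepTools and Trim Galore, on build hg38; versions: not given in the sources used here. Peaks were called per library. The authors deposited, per peak, a score (the integer part of 10 times −log10 q), a fold or ratio over local background, −log10 values of p and of q (a p-value adjusted by the caller), and the summit offset in bp. These values depend on depth: scores, folds and −log10 values were used to rank and filter within a list only, while fragments recovered from them (below) were set side by side between lists with no correction for depth.

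With Python 3.11.15 and SciPy 1.17.1, summit fragments were recovered as whole numbers from fold and −log10 p for 100.0% of peaks (within 0.001), taking fold as (fragments + 1)/(background + 1). Depth beyond this is unknown: the median peak had 12 fragments at day 5 and 11 without doxycycline. Gene spans, strand and promoter windows came from NCBI RefSeq (GRCh38.p14); a span's outermost start was taken as the gene's start. Gene lists, matched for all but GRPEL1 and MIZ1, alternatives and the rule for named genes (by rank within orientation, and up to 4 per list, of which a selection is given) were chosen with earlier results of these data known. Code was tested on simulated data. Peaks on Y, mitochondrial DNA and contigs were left out. Some of the classical divergent pairs are not reported here.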

Additional observations from a re-analysis of the deposited data

Results flagged for a closer look

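Outside the chromosomes described here, 235 day 5 peaks and 91 peaks without doxycycline lay on Y, the mitochondrial genome and contigs. They are named because none of the comparisons used them. No control library was used to set their level, and they were not assigned to genes.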

How the results depend on the processing

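Of 55 alternative values, 40 stayed within 1.5 times the count or inside the interval of the share. The others came from how many peaks were taken, how overlap was defined, or, in 1 case, the part of the promoter window searched. With peaks above the median rank only, the neighbouring-gene peaks numbered 637, the head-to-head ones 373 and the genes 1285, fewer by construction. With as many day 5 peaks as the other list holds, the numbers were 650, 382 and 1312, counterparts were listed for 68.5% of neighbouring-gene, 70.4% of head-to-head and 61.5% of one-gene-end peaks, and 33.9% of head-to-head pairs and 12.6% of lone starts had a day 5 peak; both of these last values were added after seeing the data. With reciprocal overlap of 50% the counterpart shares were 40.8%, 43.3% and 35.3%. CACGTG in only the 100 bases before the start was in 6.81% of head-to-head windows, against 4.24% of all. Neighbouring-gene peaks had a counterpart more often than one-gene-end peaks in all 10 settings computed, by 5.5 to 10.1 percentage points. No paired analysis was possible because each condition had 1 Myc library. Peaks of few fragments limit what can be seen: 34.8% of day 5 peaks and 42.2% of those without doxycycline had fewer than 10.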

Other observations

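The following head-to-head peaks were chosen after their values were seen. In 14 of the 350 with a counterpart, the Poisson interval of day 5 lay wholly above that without doxycycline, and in 0 it lay wholly below. Over all 2846 shared day 5 peaks 106 lay above and 3 below, 3.72% being above, which is near the share among head-to-head peaks. These intervals cover counting error only, and the median ratio over the 350 was 1.38. PIGP, of GPI anchor synthesis, with TTC3 had 38 fragments at day 5 (26.9 to 52.2) and 10 without doxycycline (4.80 to 18.4). SLC39A6, a zinc transporter, with ELP2, a subunit of Elongator, had 32 at day 5 (21.9 to 45.2) and 8 without doxycycline (3.45 to 15.8). PRKCSH, the beta subunit of glucosidase II, with ODAD3 had 27 at day 5 (17.8 to 39.3) and 7 without doxycycline (2.81 to 14.4). At the other end, POLR1C, of RNA polymerases I and III, with YIPF3 had 8 at day 5 (3.45 to 15.8) and 13 without doxycycline (6.92 to 22.2), and FDPS, of isoprenoid synthesis, with PKLR had 7 at day 5 and 11 without doxycycline, with overlapping intervals. The 33 head-to-head peaks without doxycycline that had no day 5 counterpart held a median of 7 fragments and at most 18, at ASH1L and MSTO1. GYS1 and RUVBL2 had 14 there, and CDK5 and SLC4A2 had 16.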
